A study of Mus musculus with 4 samples.

Results

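The genes described here are 9 effector genes of the basophil and mast cell lineages, namely Il4, Il6, Il13, Mcpt8, Prss34, Cpa3, Fcer1a, Ms4a2 and Hdc, chosen by symbol from the 32285 genes in the files. They were followed in bone marrow of mice with 5TMM myeloma, in which 5TGM1-luc myeloma cells had been injected into the veins of 6-week-old C57BL/KawRij mice, so that a transplanted tumor line grew in hosts with their own immune cells. After 3 weeks, 2 mice received vehicle and 2 received Purinostat Mesylate (PM), a class I and IIb histone deacetylase inhibitor, at 10 mg/kg, and whole marrow was collected 24 h later, depleted of red cells by lysis, and sequenced by droplet single-cell RNA-seq (10x Genomics, 3' chemistry). All 4 mice carried the tumor, so no comparison with tumor-free marrow was possible, and with 2 mice a group an exact permutation test cannot go below p = 0.33. The questions were which cells held Il6, Il4 and Il13, and how the genes differed between PM-treated and vehicle-treated mice.

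Basophils and mast cells are related granulocytes that arm themselves through the high-affinity IgE receptor, whose alpha chain is encoded by Fcer1a and whose beta chain is encoded by Ms4a2. Their granules hold proteases and histamine. Mcpt8 and Prss34 encode serine proteases of mouse basophils, Cpa3 a carboxypeptidase of mast cells and basophils, and Hdc the enzyme that makes histamine from histidine. On stimulation, basophils release Il4 and Il13, the cytokines of type 2 immunity, and Il6, a cytokine that myeloma cells are known to use as a growth factor.

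Basophil-gated cells were defined as cells with at least 3 UMIs (unique molecular identifiers, each counting 1 captured RNA molecule) of Mcpt8 and Prss34 together. The gate held 609 of the 39743 cells kept, with 100 and 106 cells after vehicle and 223 and 180 after PM. Levels are given as counts per 1e6 UMIs (CPM) of the cells summed in a mouse, and fold changes as log2 of PM over vehicle with their SE from edgeR's quasi-likelihood test. A gene was called when its Benjamini-Hochberg adjusted p was below 0.05 and its log2 fold change lay beyond 0.5 in either direction. Levels and differences of Mcpt8 and Prss34 inside and outside the gate are a description only, with no test, because the gate was drawn on them.

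The 9 genes lie scattered over the genome except Il4 and Il13, which are 12.7 kb apart on chromosome 11. All 9 matched RefSeq promoter windows of GRCm38.p6, from 250 bases before to 50 after a start, with 2 windows for Il4. GATA factors govern this lineage, and the letters GATAA, on either strand, stood in at least 1 window of 7 of the 9 genes, against 25.4% of all 32817 windows. The letters TGANTCA of AP-1 stood in the window of Il6 alone (7.81% of all windows), and GGAAA, on either strand, in those of all genes but Hdc (61.3%). A match is a description of the letters and not a binding site. The windows of Cpa3 (chr3:20242132-20242431, minus strand), Mcpt8 (chr14:56085148-56085447, minus strand) and Il6 (chr5:30012864-30013163, plus strand) are shown because the results on protease and cytokine transcripts turn on these genes, 5' to 3', with GATAA or its complement in capitals. The window of Mcpt8 holds none.
Cpa3: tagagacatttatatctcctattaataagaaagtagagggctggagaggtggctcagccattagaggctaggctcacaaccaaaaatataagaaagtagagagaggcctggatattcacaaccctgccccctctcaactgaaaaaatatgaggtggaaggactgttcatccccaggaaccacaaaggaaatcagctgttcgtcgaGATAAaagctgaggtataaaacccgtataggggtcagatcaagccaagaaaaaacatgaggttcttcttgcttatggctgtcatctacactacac
Mcpt8: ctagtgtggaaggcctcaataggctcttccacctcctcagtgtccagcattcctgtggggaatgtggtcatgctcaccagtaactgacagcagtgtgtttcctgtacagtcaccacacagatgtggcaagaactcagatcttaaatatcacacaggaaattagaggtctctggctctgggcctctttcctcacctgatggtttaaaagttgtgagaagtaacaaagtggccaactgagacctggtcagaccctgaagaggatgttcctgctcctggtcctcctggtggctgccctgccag
Il6: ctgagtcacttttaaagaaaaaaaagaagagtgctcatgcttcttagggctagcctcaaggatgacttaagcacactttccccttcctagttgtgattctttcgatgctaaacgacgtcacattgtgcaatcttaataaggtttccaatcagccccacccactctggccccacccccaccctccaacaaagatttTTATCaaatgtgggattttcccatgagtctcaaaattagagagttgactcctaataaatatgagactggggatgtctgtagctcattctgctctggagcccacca

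The kept cells held 69190194 to 108776232 UMIs a mouse, with a median of 4717 to 6067 UMIs a cell. Between 18 and 41 barcodes were shared by any pair of libraries. Doublet calling marked 2.21 to 4.10% of cells and recovered only 29.3 to 34.0% of simulated doublets, so doublets remained among the cells. No label gave a batch. None of the 255 to 518 barcodes a mouse left out by the quality filters reached the gate.

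The gate was checked against markers of the neighboring lineages. The mast cell proteases Mcpt1 and Mcpt4 had 0 UMIs in the gated cells, and the tryptases Tpsb2 and Tpsab1 had 1 UMI each. The mast cell chymase Cma1 had 27 UMIs, all of them in the 2 PM mice and all in cells of the basophil cluster. Kit, a marker of mast cells and also of HSPC (stem and progenitor cells), stood at 116, 130, 100 and 121 CPM in the gate. Within the basophil cluster it stood at 26.2, 19.8, 38.5 and 17.4 CPM. Of 9 markers that define mast cells, 4 had any UMI, Kit among them. All 10 basophil markers did, but they include Mcpt8 and Prss34, on which the gate was drawn, so this count does not name the cells. The name basophil-gated refers to the gate alone, and the cells are not called mast cells.

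The gated cells were not of one kind. By unsupervised clustering, 364 of them (59.8%) lay in the single cluster that carried all 10 basophil markers, and 159 lay in the clusters named HSPC (stem and progenitor cells). A further 53 lay in an unnamed cluster led by Nrg1 and Dmkn that also carried the granule genes Prtn3, Mpo and Elane, and 25 in the megakaryocyte cluster. The median sum of Mcpt8 and Prss34 was 69.5 UMIs in the gated cells of the basophil cluster and 4 UMIs in those of the HSPC clusters. The order of depth was opposite, at a median of 5130 UMIs a cell in the basophil cluster and 34644 in the HSPC clusters. Cd200r3, a basophil surface receptor, stood at 908 CPM in the former and 0.794 CPM in the latter, while Mpo, myeloperoxidase of granulocyte progenitors, stood at 1548 and 9237 CPM.

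The make-up of the gate was not the same in the 4 mice. Cells of the basophil cluster made up 73.0 and 66.0% of the gated cells after vehicle and 51.6 and 58.9% after PM. Because the other gated cells were deep, those outside the basophil cluster held 67.4 and 70.6% of the gate's UMIs after vehicle and 78.6 and 78.2% after PM. The groups did not overlap in either share. A level in the gate as a whole is a level diluted by these cells, and each result is therefore given also within the basophil cluster, a choice made after their position was seen.

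**Figure D1:**
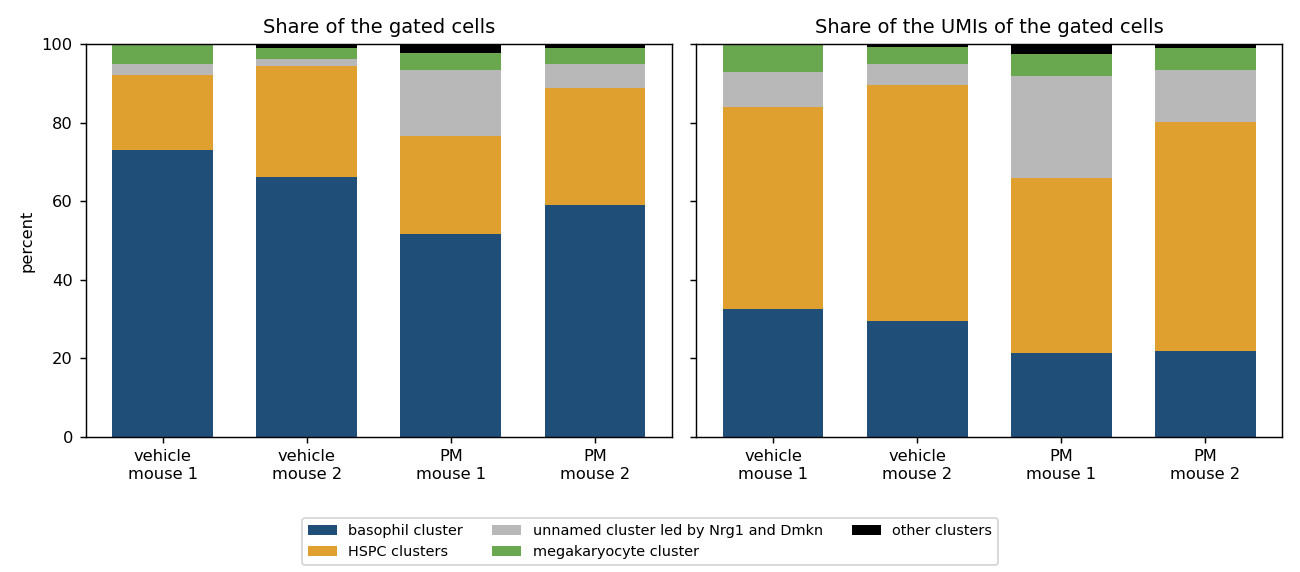
Where the basophil-gated cells lay, by mouse. Bars show the percent of gated cells (left) and of their UMIs (right) in each cluster group for 2 vehicle and 2 PM mice, and the basophil cluster takes a smaller share in both PM mice than in either vehicle mouse.

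At the edge of the gate, 251 cells had 2 UMIs of the pair and 110 had 3. Of these, 15 and 18 lay in the basophil cluster and 135 and 65 in the HSPC clusters, with medians of 28004 and 29066 UMIs a cell. Il6 was detected in 10 and 13 of them and Cpa3 in 34 and 24. Cells on both sides of the threshold were thus mostly deep cells of other clusters.

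Most UMIs of 8 genes lay in the gated cells. They held 98.98% of the 57148 Prss34 UMIs and 96.3% of the 35011 Mcpt8 UMIs, as the gate required. For the genes that did not define it, the share was 94.0% of 4021 UMIs for Fcer1a, 81.3% of 6096 for Cpa3 and 76.7% of 7595 for Ms4a2. Hdc was the exception, with 4.64% of its 78522 UMIs in the gate (95% exact Clopper-Pearson interval 4.49 to 4.79%, counting error only).

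**Figure D2:**
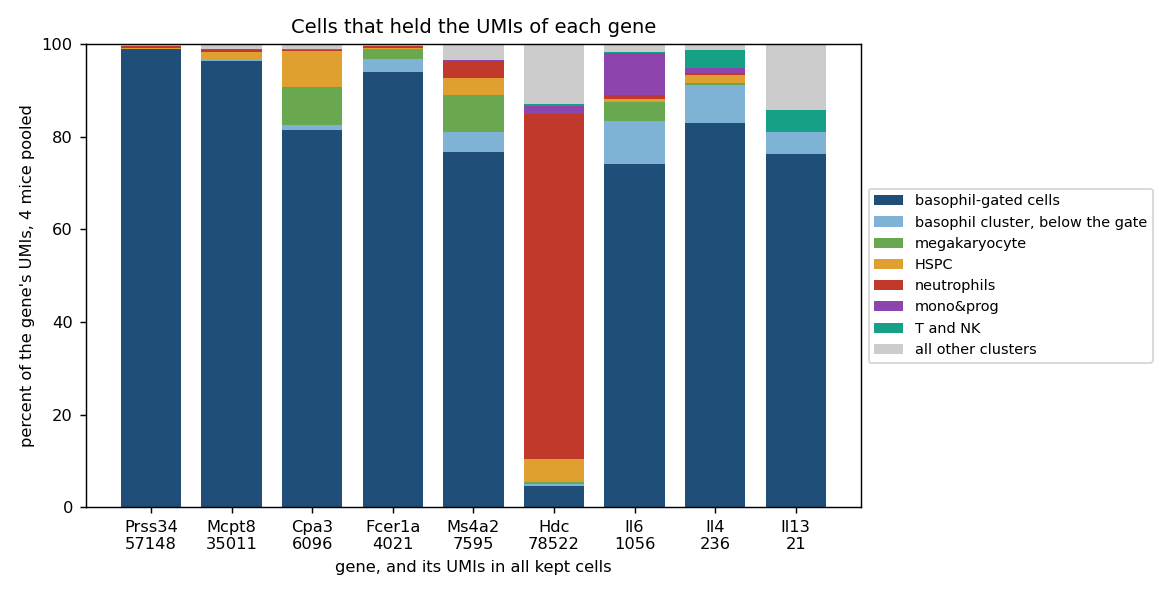
Cells that held the UMIs of each gene, with the 4 mice pooled. Bars give the percent of a gene's UMIs by cell group and the number under each name is its UMI total, and basophil-gated cells hold most UMIs of every gene but Hdc, 74.5% of which lay in neutrophils.

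Il6 came mostly from basophils in vehicle and PM mice alike. The gated cells held 112 of 222 Il6 UMIs in vehicle mouse 1, 139 of 162 in vehicle mouse 2, 174 of 225 in PM mouse 1 and 357 of 447 in PM mouse 2. These are 50.5, 85.8, 77.3 and 79.9% of the UMIs of each mouse, or 73.4 ± 15.7% (SD, n = 4 mice). The low value of vehicle mouse 1 rested on a single cell in the monocyte cluster that held 65 Il6 UMIs among 29387, was not called a doublet and had no UMI of Mcpt8, Prss34, Cpa3, Fcer1a or Ms4a2. Without that cell the share in this mouse was 71.3%. Cells of the basophil cluster that missed the gate added 15, 12, 29 and 42 Il6 UMIs, which brought the gate and the cluster together to 83.3% of all 1056.

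Outside the gate, Il6 could be tested in 3 classes. The monocyte clusters held 80 and 7 Il6 UMIs after vehicle, against none in PM mouse 1 and 9 in PM mouse 2. Of the 80, 65 lay in the single cell described above, and the change was -2.94 ± 2.03 (SE, edgeR adjusted p = 0.66). The megakaryocyte cluster below the gate also held Il6, with 1 and 3 UMIs after vehicle and 16 and 23 after PM. The groups did not overlap, and the fitted change was 2.45 ± 0.67 (SE), but it did not pass the test across genes (edgeR, unadjusted p = 0.0036, adjusted p = 0.83). In this cluster 503 of 9460 genes had an unadjusted p below 0.05 in edgeR. Of the 43 Il6 UMIs there, 31 lay in 53 cells with at least 3 UMIs of Cpa3, Ms4a2 and Fcer1a together. That cut was chosen after the values were seen. Those 53 cells made up 5.77 and 11.1% of the cluster's cells below the gate after vehicle and 18.3 and 18.2% after PM. They had 13.5 CPM of Pf4, a platelet chemokine, against 6640 in the other 301 cells, and 1530 CPM of Prg2, the eosinophil major basic protein, against 1.37.

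Il4 lay mostly in the same cells. The gate held 34 of 47 UMIs in vehicle mouse 1, 50 of 53 in vehicle mouse 2, 33 of 45 in PM mouse 1 and 79 of 91 in PM mouse 2. That is 81.7 ± 10.7% (SD, n = 4 mice), and the gate with the rest of the basophil cluster held 91.1% of all 236 UMIs. T and NK cells, which can also make Il4, held 2, 1, 2 and 4 UMIs.

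Il13 was close to the detection limit. It had 8 UMIs in the gated cells of vehicle mouse 1 and 8 in those of PM mouse 2, in 7 and 5 cells, and 0 in the other two mice, whose gates of 2061590 and 4239423 UMIs allow levels up to that of 3 UMIs. Of 21 UMIs in all cells, 16 (76.2%, exact interval 52.8 to 91.8%) lay in the gate. All 12 Il13-bearing gated cells lay in the basophil cluster and also held Il4 or Il6. Of all 364 gated cells of that cluster, 279 held at least 1 of the 3 cytokines, so this overlap is not read as a result. The gene did not pass the filter on low counts and was not tested between PM and vehicle.

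Within the gate, the cytokines belonged to the basophil cluster. Its gated cells held 742 of the gate's 782 Il6 UMIs and 193 of its 196 Il4 UMIs, whereas the 159 gated cells of the HSPC clusters held none of either. Il6 was detected in 58.9 and 71.4% of the gated basophil-cluster cells after vehicle and in 60.9 and 79.2% after PM. After each cell was thinned to 2000 UMIs the shares were 31.9, 37.3, 35.5 and 48.0%. Neutrophils, which should lack the transcript and had medians of 4140 to 5477.5 UMIs against 4801 to 5997, showed Il6 in 0 to 0.14% of cells, a background far below these shares.

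Il4 was detected in 35.6 and 37.1% of the gated basophil-cluster cells after vehicle and in 21.7 and 47.2% after PM. Thinning to 2000 UMIs gave 16.7, 20.9, 10.9 and 29.0%, and left out 1, 3, 5 and 6 shallower cells. Both vehicle values lay between the PM values for Il4, and the groups overlapped for Il6 as well. Of the 247 gated basophil-cluster cells with Il6, 38.5% also held Il4, against 27.4% of the 117 without, at median depths of 5300 and 4651 UMIs, and the part of depth in this difference was not tested. The 10 cells richest in Il6 held 34.5 to 54.5% of the Il6 UMIs of the gate in a mouse.

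No change in Il6 or Il4 was detected in the gated cells after PM. In the whole gate Il6 stood at 56.2 and 67.4 CPM after vehicle and at 41.0 and 97.1 CPM after PM. The log2 fold change was 0.13 ± 0.51 (SE, edgeR adjusted p = 0.995, normal 95% interval -0.88 to 1.13). That interval leaves out the few degrees of freedom of the test and is too narrow for 2 mice a group. The 2 PM mice lay on either side of both vehicle mice. Without PM mouse 1 the change was 0.59 (adjusted p = 0.046), a call, and without PM mouse 2 it was -0.53 (adjusted p = 0.12). Within the basophil cluster Il6 stood at 172, 230, 181 and 407 CPM, a change of 0.52 ± 0.41 (adjusted p = 0.97).

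In the 72 cells of the basophil cluster that missed the gate, Il6 was higher in both PM mice than in both vehicle mice. It stood at 145 and 330 CPM in 20 and 12 cells after vehicle and at 438 and 680 CPM in 25 and 15 cells after PM, on 12 to 42 UMIs a mouse. The fitted change was 1.32 ± 0.47 (SE, normal 95% interval 0.40 to 2.24). It had an unadjusted p of 0.0090 and did not pass edgeR's test across genes (adjusted p = 0.82). In the same cells 60 of the 1191 genes tested had an unadjusted p below 0.05 in edgeR. In the whole gate, a different set of cells, 17.5% of genes tested were higher in all 4 pairs of mice. The share in the 72 cells themselves is not given. The 72 cells were also picked by missing the gate, so the Il6 difference is not read as a result. Il4 in these cells had 7 and 1 UMIs after vehicle and 6 and 5 after PM and was not tested.

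Il4 stood at 17.1 and 24.3 CPM in the gate after vehicle and at 7.78 and 21.5 CPM after PM. The log2 fold change was -0.54 ± 0.47 (SE, edgeR adjusted p = 0.927, normal 95% interval -1.45 to 0.37, too narrow as for Il6), and the groups overlapped. Without PM mouse 2 the change was -1.35 (adjusted p = 0.0047), a call that rested on PM mouse 1. Within the basophil cluster Il4 stood at 52.3, 77.6, 36.3 and 98.3 CPM, a change of 0.02 ± 0.43 (adjusted p = 0.997).

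**Figure D3:**
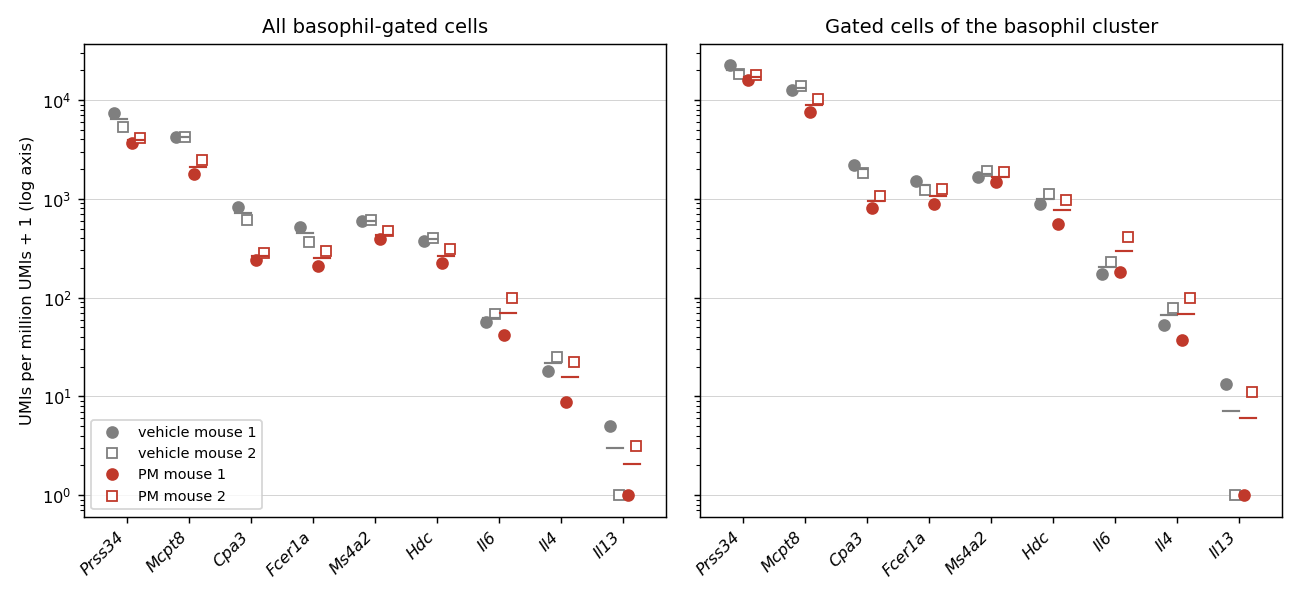
Levels of the 9 genes by mouse, in all basophil-gated cells (left) and in gated cells of the basophil cluster (right), on a log axis of CPM plus 1, with short lines at group means. Levels are to be compared within a gene, and Cpa3 lies lower in both PM mice than in both vehicle mice in either panel, whereas Il6 and Il4 overlap.

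Cpa3 was the gene of the 9 that fell most clearly after PM. It stood at 817 and 617 CPM in the gated cells of the vehicle mice and at 240 and 283 CPM in those of the PM mice. The groups did not overlap, and the log2 fold change was -1.46 ± 0.16 (SE, edgeR adjusted p = 3.5e-04). Of the 10498 genes tested in the gate, 0.105% were called, 0.0667% higher and 0.0381% lower, and of the 6 genes tested among the 7 that did not define the gate, Cpa3 alone was called. In sums over the whole gate, fewer basophils among the gated cells and less RNA per basophil cannot be told apart.

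The fall of Cpa3 was also present within the basophil cluster. There the level was 2185 and 1822 CPM after vehicle and 815 and 1068 CPM after PM, a change of -1.11 ± 0.22 (edgeR adjusted p = 0.032), where 0.14% of 7851 genes were called, 0.0764% lower. The mean was 19.5 and 15.8 Cpa3 UMIs a cell after vehicle and 6.43 and 8.09 after PM. Fewer cells carried the transcript at all, with 86.1 and 79.1% of cells after vehicle and 56.4 and 51.0% after PM once each cell was thinned to 2000 UMIs (93.2, 92.9, 67.8 and 66.0% unthinned). In neutrophils, the background, the share was at most 0.14%.

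Cpa3 was called lower in 16 of 17 alternatives in the gated cells, with changes from -1.64 to -0.98. These included a gate on Fcer1a, Ms4a2 and Cpa3 that did not use Mcpt8 or Prss34 but did use Cpa3 itself (-0.98, edgeR adjusted p = 0.0074). The call at that gate is thus a description only, and the basophil cluster was named partly by Cpa3. The exception was the gated cells outside the basophil cluster, where the change was -0.86 (adjusted p = 0.23). Of 10 neutrophil transcripts tested in the same gated basophil-cluster cells, 1 was called, and 8 had changes above 0 (median 0.34). The call was Elane, neutrophil elastase, at 27.7 and 14.9 CPM after vehicle and 227 and 203 CPM after PM (3.30 ± 0.27, edgeR adjusted p = 1.1e-07). In the whole gate Elane was not called (0.26 ± 0.15, edgeR adjusted p = 0.83). The 9 HSPC markers together stood at 2773, 2120, 3863 and 3510 CPM. Whether this RNA came from other cells or from the gated cells, and its part in the fall of Cpa3, was not tested.

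The levels of Mcpt8, a gene that drew the gate, are given as values. It stood at 4262 and 4201 CPM in the vehicle mice and at 1786 and 2446 CPM in the PM mice, a fitted change of -1.01 ± 0.16 (SE). Within the basophil cluster it stood at 12579 and 14011 CPM against 7489 and 10140 CPM, a change of -0.61 ± 0.25, and gates of at least 5 and 10 UMIs gave -0.92 and -0.73. The gate on Fcer1a, Ms4a2 and Cpa3, which did not use Mcpt8, gave -0.65 (edgeR adjusted p = 0.16). The whole basophil cluster, which was named partly by Mcpt8, gave -0.58 (adjusted p = 0.67). Both PM mice lay below both vehicle mice in the gate and within the cluster, and the difference was smaller within the cluster.

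Prss34, the other gene of the pair, stood at 7333 and 5376 CPM after vehicle and 3673 and 4158 CPM after PM in the whole gate (-0.70 ± 0.18). Within the basophil cluster the values were 22387, 18291, 15914 and 18030 CPM, a change of -0.27 ± 0.25. The gate that did not use it gave -0.29 (edgeR adjusted p = 0.82). Within the cluster the groups nearly touched, and their means lay closer together than the 2 vehicle mice did.

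The chains of the IgE receptor did not pass the test in the gate, though the call of Fcer1a depended on the setting. Fcer1a stood at 524, 368, 208 and 299 CPM in the gate (-0.83 ± 0.19, edgeR adjusted p = 0.16) and at 1521, 1229, 893 and 1254 CPM within the basophil cluster (-0.37 ± 0.22, adjusted p = 0.90). Ms4a2 stood at 593, 607, 388 and 475 CPM in the gate (-0.49 ± 0.14, adjusted p = 0.26) and at 1658, 1900, 1490 and 1870 CPM within the cluster (-0.10 ± 0.21, adjusted p = 0.99). Fcer1a was called lower in the gate in 6 of 17 alternatives, with changes from -1.06 to 0.01 over all 17. These were no filter on low counts (adjusted p = 6.5e-06), the DESeq2 test (0.027), the replicate number as a block (0.035), and leaving out vehicle mouse 2 (2.0e-04), PM mouse 1 (0.016) or PM mouse 2 (7.8e-08, edgeR). It was not called at any other gate or within the basophil cluster. Ms4a2 was called in 1 of 17, without PM mouse 2 (-0.57, adjusted p = 0.016). Both were lower in every PM mouse than in every vehicle mouse in the gate, and both overlapped within the cluster. Over all genes tested in the gate, 15.9% were lower in all 4 pairs of mice.

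Hdc in the gate stood at 375 and 400 CPM after vehicle and 221 and 309 CPM after PM (-0.56 ± 0.15, edgeR adjusted p = 0.19). Within the basophil cluster it stood at 879, 1117, 558 and 973 CPM (-0.40 ± 0.23, adjusted p = 0.90), with overlap. In the gate it was called in 2 of 17 alternatives, with no filter on low counts (-0.56, adjusted p = 0.012) and without PM mouse 2 (-0.75, adjusted p = 3.7e-04). The median change of the 6 genes tested that did not define the gate was -0.55 in the gate and -0.24 within the basophil cluster, against 0.0026 and -0.0056 for all genes tested.

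**Figure D4:**
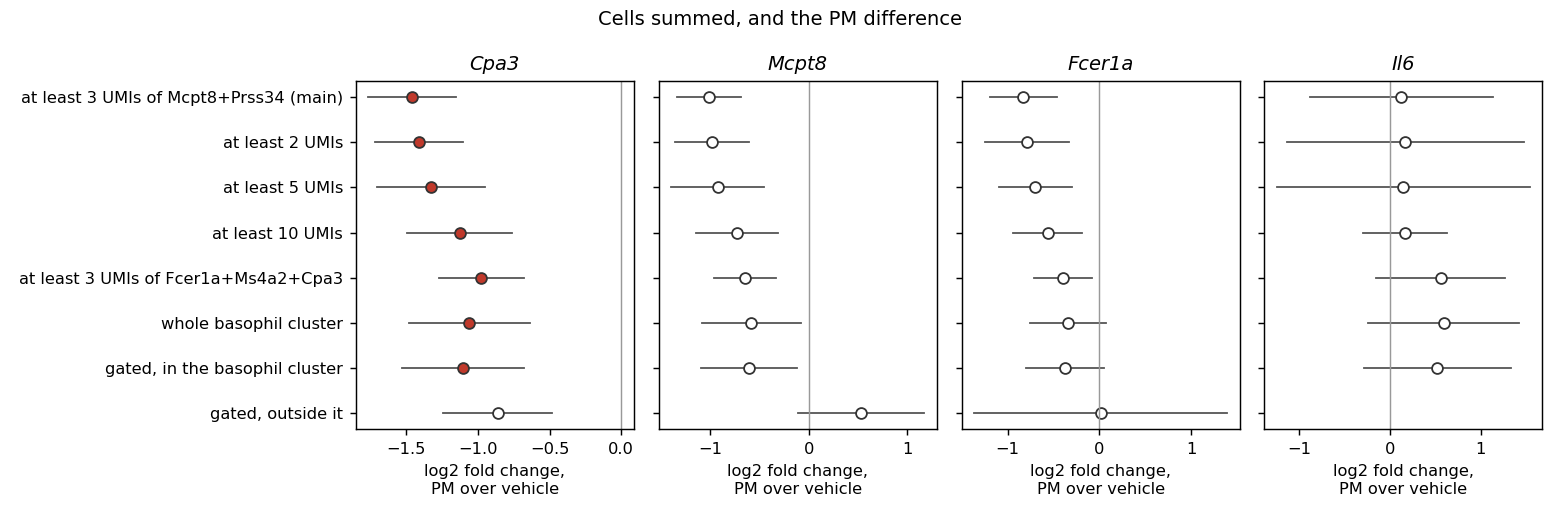
Log2 fold change of PM over vehicle for Cpa3, Mcpt8, Fcer1a and Il6 when different cells are summed. Points are edgeR estimates and filled points were called. Bars are normal 95% intervals from the SE, which leave out the few degrees of freedom and are too narrow for 2 mice a group. Calls of Mcpt8 are shown only for the 2 groups of cells not gated on it, and there was none. Of these 2, the basophil cluster was named partly by Mcpt8. Cpa3 is called in each row but the last, the gated cells outside the basophil cluster. Among these rows, the gate on Fcer1a, Ms4a2 and Cpa3 picked cells by Cpa3 itself, so its call is a description only. The basophil cluster was named partly by Cpa3.

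The share of gated cells among all cells was 1.08 and 1.35% after vehicle and 1.67 and 1.94% after PM. The groups did not overlap, but the change of 0.57 ± 0.56 (SE) did not pass edgeR's test across cell classes (adjusted p = 0.81). With a gate of at least 10 UMIs the share was 0.777 and 0.818% against 0.769 and 0.895%, a change of 0.06. With cells thinned to 2000 UMIs the change was 0.26. The gated cells of the basophil cluster were 0.788 and 0.894% of cells after vehicle and 0.859 and 1.14% after PM, and those outside it 0.292 and 0.460% against 0.807 and 0.798% (1.10 ± 0.59, adjusted p = 0.38).

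Over all cells of a mouse summed, none of the 9 genes was called, where 0.0128% of 15581 genes were (edgeR, 2 higher and 0 lower). Cpa3 stood at 21.3 and 23.4 CPM after vehicle and 11.5 and 19.0 CPM after PM, a change of -0.69 ± 0.22 (unadjusted p = 0.021, adjusted p = 0.36). The other 8 changes lay between -0.44 for Hdc and 0.57 for Il6.

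Outside the gate, 17 cell classes could be tested and gave 42 tests of the 9 genes. There were 3 calls, each of Hdc, where 1.47% of all tests over genes and classes were called. Of the 42, 10 were of Mcpt8 or Prss34 and are not read as tests, because the gate was drawn on these genes. Of the other genes, 11 tests had an unadjusted p below 0.05 in edgeR, 6 of Hdc, 2 each of Il6 and Ms4a2 and 1 of Cpa3. At that cut stood 2880 of 11746 genes in neutrophils and 503 of 9460 in the megakaryocyte cluster, so the 11 are not read as a result.

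Mcpt8 and Prss34 outside the gate are given as values only, because by the gate these cells held at most 2 UMIs of the pair. Of 10 fits, the 5 with an unadjusted p below 0.05 in edgeR are shown, a choice that favors large changes. The rest ran from 0.03 ± 0.53 (Prss34 in B cells) to 1.17 ± 0.57 (Mcpt8 in the cluster led by Fcnb and Chil3). Neither the choice nor the direction of these changes is read as a result. Mcpt8 stood at 0.98 and 0.82 CPM after vehicle and 1.86 and 1.62 CPM after PM in neutrophils (0.83 ± 0.32), at 12.8, 14.4, 18.6 and 17.7 CPM in HSPC (0.41 ± 0.17) and at 4.36, 7.54, 10.7 and 8.98 CPM in the cluster led by Nrg1 and Dmkn (0.79 ± 0.30). Prss34 stood at 1.40, 1.55, 2.74 and 2.20 CPM in neutrophils (0.64 ± 0.28) and at 0.59, 0.32, 1.40 and 1.26 CPM in HSPC (1.46 ± 0.61). These low levels are cut off by the gate and are not compared with those in it.

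Hdc reached beyond the gate. The highest level of Hdc was 2422, 2048, 1944 and 2933 CPM in an unnamed cluster led by Ptgs2 and Il1b. It was followed by 1206, 1785, 846 and 923 CPM in basophil-cluster cells below the gate and by 581, 451, 414 and 528 CPM in neutrophils. Hdc was not confined to granulocytes, and stood at 404, 409, 227 and 227 CPM in CAR cells, a stromal cluster led by Cxcl12. The first 2 classes had neighboring ranges that did not overlap. Gated cells within the basophil cluster, a part of the gate, stood at 879, 1117, 558 and 973 CPM. They lay above the neutrophils of the same mouse in each mouse, although the ranges over mice overlapped.

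Hdc was called in 3 classes with different directions. In the unnamed cluster led by Fcnb and Chil3, genes of immature neutrophils, it fell from 112 and 77.6 CPM to 42.7 and 57.5 CPM (-1.02 ± 0.16, edgeR adjusted p = 0.0068, where 2.26% of genes were called, 0.356% lower). In the unnamed cluster led by Nrg1 and Dmkn it rose from 24.4 and 19.7 CPM to 46.9 and 43.5 CPM (1.01 ± 0.16, adjusted p = 0.0098, 0.736% called, 0.664% higher), a call that was lost without PM mouse 1 (0.90, adjusted p = 0.14). In neutrophils themselves it did not pass the test (-0.25 ± 0.18, adjusted p = 0.42).

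The third class was B cells, in which Hdc was 34.9 and 27.7 CPM after vehicle and 15.01 and 17.8 CPM after PM (-0.88 ± 0.24, edgeR adjusted p = 0.040, 6.12% called, 3.22% lower). Only 2.87% of B cells held an Hdc UMI, below the 8.28% of T and NK cells. The B cell counts were 25 and 93 UMIs in 6 and 33 cells after vehicle and 60 and 47 UMIs in 35 and 23 cells after PM. Where this RNA came from was not tested. The call was lost with DESeq2 (adjusted p = 0.41), without vehicle mouse 2 (0.11) and without PM mouse 1 (0.26). With called doublets left out the change was -0.46 (adjusted p = 0.54).

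**Figure D5:**
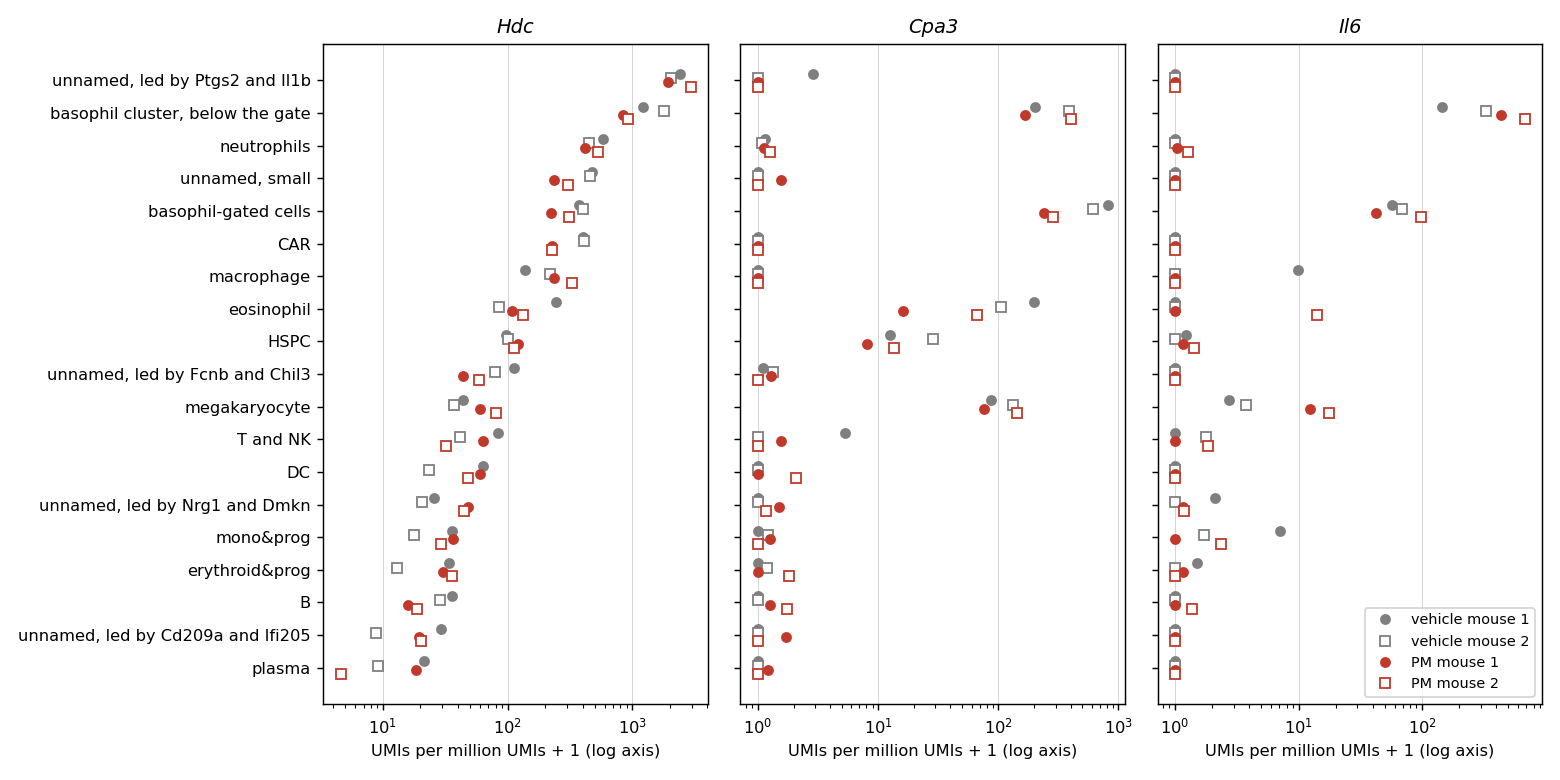
Levels of Hdc, Cpa3 and Il6 by cell class and mouse, as CPM plus 1 on a log axis, for classes with at least 10 cells in each mouse. Hdc spreads over granulocyte classes and is also present in CAR stromal cells. Cpa3 spreads over the gated, basophil, megakaryocyte, HSPC and eosinophil classes, and Il6 lies highest in basophil-cluster cells and gated cells.

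Cpa3 and Ms4a2 were shared with other marrow classes below the gate. The megakaryocyte cluster held 8.15 and 8.07% of their UMIs and the HSPC clusters 7.74 and 3.61%. In the megakaryocyte cluster, 447 of the 497 Cpa3 UMIs lay in the 53 cells, low in Pf4, that were described with Il6. Cpa3 stood at 547 CPM and Ms4a2 at 732 CPM in these 53 cells, against 13.7 and 3.84 CPM in the other 301. The cut that picked the 53 cells used both genes, so the split is a description only. Cpa3 in HSPC stood at 11.6, 27.6, 7.01 and 12.5 CPM and in the eosinophil cluster at 198, 105, 15.2 and 65.3 CPM. Both means were lower after PM, HSPC overlapped between the groups, and neither passed the test (edgeR, -1.02 ± 0.59, adjusted p = 0.64, and -2.03 ± 0.67, adjusted p = 0.9997, the latter on 3 to 18 UMIs a mouse). Ms4a2 in HSPC was 5.89, 5.51, 8.41 and 9.21 CPM (0.61 ± 0.22, adjusted p = 0.35).

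The PM effect in the gate was compared with that in all other cells of the same mice by an interaction term in edgeR. Of 14858 genes, 0.363% differed, 0.202% lower. Mcpt8 and Prss34 are left out of this comparison, because the gate was drawn on them and no cell outside it could hold more than 2 UMIs of the pair. Of the other 7 genes Fcer1a was called, with a difference of -1.33 ± 0.25 (adjusted p = 0.034). Outside the gate Fcer1a lay mostly in basophil-cluster cells below the gate (30, 21, 26 and 31 UMIs) and in the megakaryocyte cluster (21, 3, 29 and 35 UMIs). Both sides of the comparison thus depend on where the gate was drawn, and the difference is not read as a change within basophils. The call was lost without vehicle mouse 1 (-1.76, adjusted p = 0.10 in edgeR) and without vehicle mouse 2 (-1.04, adjusted p = 0.21 in edgeR). Cpa3 differed by -1.23 ± 0.82 (adjusted p = 0.81) and Il6 by 0.21 ± 0.95 (adjusted p = 0.99). For gated cells of the basophil cluster against all other cells, a setting added later, Cpa3 differed by -0.96 ± 0.18 (edgeR adjusted p = 1.4e-04) and was called. The Cpa3 difference was called in only 3 of 14 alternatives, with values from -1.92 to -0.58. The basophil cluster was also named partly by Cpa3, so this call is a description only.

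Genes of the surrounding pathways gave 1 call in the gate. None of the 16 tested genes of IgE receptor signaling was called, the 2 most abundant being Fcer1g, the signaling gamma chain (343, 398, 430 and 276 CPM), and Grb2 (204, 178, 154 and 175 CPM). None of 11 growth factor and alarmin receptors was called, with Csf2rb, the common beta chain used by IL-3, at 265, 263, 204 and 239 CPM and Il18rap, a chain of the IL-18 receptor, at 168, 195, 134 and 141 CPM. All 11 had a fitted change below 0 in the gate (median -0.21), against 4 of 11 within the basophil cluster (median 0.10). Over all genes tested, 5189 of 10498 were below 0 in the gate and 3992 of 7851 within the basophil cluster. The 8 tested genes of other basophil cytokines and chemokines were not called either, and Ccl4, a chemokine, stood at 576, 686, 208 and 901 CPM, spread as Il6 was over the PM mice. Ccl3, its neighbor in the CC family, stood at 600, 682, 263 and 647 CPM.

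Among 13 lineage transcription factors 1 was called. Irf8, a factor of monocyte and dendritic cell progenitors, stood at 73.2 and 74.2 CPM after vehicle and 213 and 159 CPM after PM in the gate (1.34 ± 0.18, edgeR adjusted p = 0.013). Within the basophil cluster it stood at 29.2, 8.26, 58.4 and 12.4 CPM and was not called (adjusted p = 0.98). Gata2, which basophils and mast cells need, stood at 637, 650, 421 and 669 CPM, with overlap, and Runx1 was the next most abundant factor.

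The other lists of lineage and signaling genes had no call in the gate. They held Alox5ap (504, 508, 429 and 416 CPM) and Lta4h (323, 335, 330 and 410 CPM) of leukotriene synthesis, among 8 genes tested, and Cd63 (661, 600, 543 and 651 CPM) and Clec12a (393, 404, 446 and 540 CPM) among 16 surface molecules. Jun and Egr1, factors of cytokine transcription, were at 550, 690, 470 and 667 CPM and at 577, 744, 419 and 586 CPM among 17 tested. The 11 early response genes tested also all had changes below 0 in the gate (median -0.55), against 5 of 8 within the cluster (median -0.13). Hdac1 and Hdac2, class I histone deacetylases, were at 122, 108, 117 and 122 CPM and at 113, 111, 89.4 and 108 CPM among 6. Of Jak1 and Stat3, among 13 genes of IL-4, IL-13 and IL-6 receptor signaling, the changes were -0.09 ± 0.13 and -0.11 ± 0.15. Srgn, which packs granule proteases, and Ctsg had changes of -0.30 ± 0.15 and -0.20 ± 0.17, Hmgb2 and Stmn1 of the cell cycle list -0.06 ± 0.15 and 0.03 ± 0.15, and Hsp90aa1 of the stress list -0.17 ± 0.15.

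Transcripts typical of other cells were also present in the gate, and which cells they came from was not tested. All 5 erythroid genes tested were above 0, with a median of 3.32, where 5309 of all 10498 genes tested were above 0. The erythroid list's sum was 69.7 and 97.98 CPM after vehicle and 622 and 136 CPM after PM. All 10 neutrophil genes had fitted changes above 0 (median 0.57), though their sum was 31852, 24576, 57426 and 23301 CPM, so that PM mouse 1 stood apart and the groups overlapped. Eosinophil granule genes varied without order, at 541, 63.1, 205 and 344 CPM, most of it Prg2 (388, 30.1, 136 and 293 CPM) and then Epx (99.3, 3.88, 27.6 and 24.2 CPM). T cell genes were at 7.02, 5.34, 8.73 and 2.99 CPM and none was tested. Igkc, an immunoglobulin light chain and the only call of the B cell list, rose from 54.2 and 48.5 CPM to 309 and 276 CPM (2.51 ± 0.15, edgeR adjusted p = 1.7e-07). Ighg2b, the heavy chain of an immunoglobulin G class, had the lowest adjusted p in the gate and rose from 11.5 and 9.22 CPM to 125 and 122 CPM (3.57 ± 0.19, adjusted p = 5.7e-08). Mt2, a metallothionein and one of the leading genes of a cluster named plasma, rose from 3.51 and 0.97 CPM to 21.2 and 28.3 CPM (3.44 ± 0.39, adjusted p = 6.5e-04). Ighg2b and Mt2 were chosen after their values were seen. The 8 plasma cell markers together stood at 253 and 169 CPM after vehicle and 211 and 234 CPM after PM in the gate, with overlap. In the gated cells of the basophil cluster Igkc stood at 61.6, 47.9, 226 and 89.6 CPM and Ighg2b at 13.9, 14.9, 55.1 and 19.9 CPM, both higher in each PM mouse than in each vehicle mouse and neither called (adjusted p = 0.84 and 0.59). The part of these transcripts in the changes of the 9 genes was not tested.

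Of the other called genes with at least 20 CPM, Ly86, a partner of the Toll-like receptor homolog RP105, rose from 26.1 and 33.0 CPM to 78.8 and 68.8 CPM (1.32 ± 0.18, adjusted p = 0.0050), and I730030J21Rik, one of the leading genes of the eosinophil cluster, fell from 47.7 and 46.6 CPM to 22.6 and 23.9 CPM (-1.02 ± 0.18, adjusted p = 0.037). Neither was called within the basophil cluster, where the adjusted p-values were 0.97 and 0.069. Slc7a11, the cystine transporter, is below that level in the gate, at 5.02, 4.85, 17.7 and 17.7 CPM, but was called higher both in the gate (1.83 ± 0.31, edgeR adjusted p = 0.031) and within the basophil cluster (2.35 ± 0.46, adjusted p = 0.032). It was chosen here after its values were seen.

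Likeness of levels was taken over 19 cell classes in 4 mice (76 sums, which share libraries and depth) as Pearson r of log2(CPM + 1). The genes most alike included basophil markers, Cd200r3 and Fcer1a for Il6 and Cd200r3 for Il4. For Il6 they were Htr1b (r = 0.92), Cd200r3 (0.92) and Fcer1a (0.91), and for Il4 Gm35147 (0.98), Htr1b (0.97) and Cd200r3 (0.96). Mcpt8 ran with Prss34 (0.83), Fcer1a (0.82) and Cyp11a1 (0.82). The gated cells were among the 19 classes and the gate was drawn on Mcpt8 and Prss34. The likeness of Mcpt8 to other genes thus partly restates the gate and is not read as a result. Cpa3 ran with Ms4a2 (0.95), Itga2b (0.93) and Gata2 (0.92), of which megakaryocytes or progenitors also use Itga2b and Gata2. Genes that ran with Hdc included Cxcr2 (0.91) and Kcnj2 (0.90), of which Cxcr2 is a chemokine receptor of neutrophils. The likeness of Il13 rested on too few UMIs to be read, its first gene being Gm27241 (0.89), followed by Chd5 (0.76) and 9930004E17Rik (0.70).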

How the data were processed

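Single-cell RNA-seq was available for 4 mice. The authors had aligned the reads and deposited UMI counts per gene and cell from Cell Ranger 6.0.1 per the file headers. The submitters' processing notes name GRCm39 and the study's methods GRCm38, so no coordinates were taken from the files. The smallest permutation p that 2 against 2 mice allow is 0.33, so tests were made across genes. The 9 genes, the gate, the marker lists and the tests were chosen with earlier results of these data known.

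Cells were kept from 300 detected genes up, with mitochondrial UMIs no more than 20%. Clusters were found with scanpy 1.11.5 (2500 variable genes, 30 principal components, 15 neighbors, Leiden resolution 1) and named from fixed markers. Doublets were scored per library and kept. Counts were summed per mouse and cell class with at least 10 cells in every mouse, and tested with edgeR 4.0.16 (quasi-likelihood, TMM, filterByExpr, robust) in R 4.3.3. Benjamini-Hochberg adjustment was over all genes of a fit. Exact intervals of shares and floors cover counting error only. Intervals of fold changes are normal intervals from the SE of the edgeR fit over mice. They leave out the few degrees of freedom of the test and are narrower than it would give. Interactions used the mouse as a block. Shares of cells with a UMI were also computed after thinning to 2000 UMIs. The named genes were the 9 genes, called genes of the lists, otherwise up to 2 of the most abundant of a list, the 5 largest rises and falls among calls averaging 20 CPM or more (leaving aside hemoglobin, mitochondrial, immunoglobulin and T cell receptor genes), and the 3 genes most alike in level. Alternatives were other gates, filters, size factors, DESeq2 1.42.0, doublets left out, each mouse left out and the replicate number as a block. Same-numbered mice did not deviate together (correlation 0.0032). One gene that the rule on likeness of levels named is not reported here.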

Additional observations from a re-analysis of the deposited data

Results flagged for a closer look

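The effect of PM on Fcer1a in the basophil-gated cells differed from that in all other cells of the same mice by the interaction test in edgeR. The difference in log2 fold change was -1.33 (adjusted p = 0.034), and with one mouse left out at a time it ranged from -1.76 to -1.04. The call was lost without vehicle mouse 1 (adjusted p = 0.10) and without vehicle mouse 2 (adjusted p = 0.21). It was also lost at a gate of 2 UMIs (-1.14, adjusted p = 0.43), with the gate on Fcer1a, Ms4a2 and Cpa3 (-1.13, adjusted p = 0.32) and with the basophil cluster in place of the gate (-1.37, adjusted p = 0.95). Fcer1a did not draw the gate, but 94.0% of its UMIs lay in it. Those outside lay mostly in basophil-cluster cells that missed the gate and in the megakaryocyte cluster. Both sides thus depend on where the gate was drawn. Within the gated cells of the basophil cluster Fcer1a changed by -0.37 ± 0.22 (SE, edgeR adjusted p = 0.90). The difference is not read as a change within basophils.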

How the results depend on the processing

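Of the alternatives over all results, 313 kept the direction and side of the threshold or moved little, 50 moved, 22 passed the threshold newly, 21 lost it and 9 reversed. The cause was not tested. Counts of genes depended most on the settings. In the gate, 7 genes were called higher and 4 lower, against 89 and 91 with no filter on low counts, 15 and 14 with called doublets left out, and 31 to 213 and 41 to 146 with one mouse left out. The lower count was 7 with a gate of at least 10 UMIs, 7 with the basophil cluster in place of the gate and 1 in gated cells outside the cluster. Over all cells summed, 2 were called higher and 0 lower (1993 genes at an unadjusted p under 0.05), against 127 and 23 with no filter, 196 and 66 with DESeq2, and 0 to 133 and 0 to 66 with one mouse left out (133 and 66 without vehicle mouse 2).

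The interaction gave 24 higher and 30 lower, against 135 and 89 with no filter, 6 and 5 at a gate of 2 UMIs, 78 and 58 with the gate on Fcer1a, Ms4a2 and Cpa3, and 5 to 279 and 2 to 61 with one mouse left out. Its higher count was 14 at a gate of 5 UMIs, 54 for the basophil cluster, 37 with doublets left out and 45 for gated cells of the cluster. Calls of the 9 genes in other classes numbered 3, and 1 to 9 with one mouse left out.

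Il4 changed by -1.35 to -0.0039 with one mouse left out (-1.35, a call, without PM mouse 2), and was 0.046 in the basophil cluster and 0.018 in its gated cells. Il6 ranged from -0.53 (without PM mouse 2) to 0.59 (without PM mouse 1, a call), with -0.0078 without vehicle mouse 1. In gated cells outside the basophil cluster the sign turned for Mcpt8 (0.53), Prss34 (3.35), Fcer1a (0.013), Ms4a2 (0.21) and Hdc (0.11), none called. With a gate of at least 10 UMIs the mean share of UMIs in the gate was 67.1% for Il4 and 54.6% for Il6, and gated cells outside the cluster held 1.42%, 2.79% and 0% of Il4, Il6 and Il13.

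With the replicate number as a block, which did not pair the mice, 45 genes were called higher and 43 lower in the gate, Fcer1a among them (-0.82, adjusted p = 0.035), Il4 changed by -0.58, Il6 by 0.06 and the gate's share by 0.57.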
